A study of Mus musculus with 12 samples.

Results

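The 10 genes described here encode the fibroblast growth factor (FGF) ligands Fgf1, Fgf2, Fgf3, Fgf7, Fgf8, Fgf9, Fgf10, Fgf16, Fgf18 and Fgf20, chosen by name as ligands of the cochlear duct. All 10 were found among 22869 gene symbols in the deposited expression table, and each was represented by its transcript row with the most reads. RNA-seq was performed on cochlear epithelium from 3 Esrp1-/- embryos (knockout) and 3 wild-type embryos (control), all C57BL/6 at embryonic day 16.5. Epithelium was isolated by hand dissection and collagenase P, which takes off the mesenchyme, and both cochleae of an embryo were pooled, so that each embryo is 1 replicate with 2 libraries. The comparison asks whether the supply of FGF ligands differs in a cochlea that lacks Esrp1. Esrp1 encodes an RNA-binding protein that sets splicing in epithelial cells; the labels name neither a tissue that the deletion was limited to nor the sex of an embryo.

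FGFs are secreted proteins that bind receptor tyrosine kinases together with heparan sulfate. Splicing of the exons for the third immunoglobulin domain of an FGF receptor gives a IIIb form, typical of epithelium, or a IIIc form, typical of mesenchyme, and these forms prefer different ligands. ESRP1 favours the IIIb form of Fgfr2. Fgf3, Fgf7 and Fgf10 belong to the FGF7 subfamily and act mainly through IIIb receptors. Members of the FGF8 subfamily (Fgf8, Fgf18) and the FGF9 subfamily (Fgf9, Fgf16, Fgf20) act mainly through IIIc receptors, the FGF9 subfamily also through the IIIb form of Fgfr3, while Fgf1 binds all forms. In the mouse inner ear, FGF ligands take part in induction of the otic placode, growth of the duct, formation of the sensory domain and differentiation of pillar cells.

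Ligands of a subfamily resemble each other in coding sequence, and this bears on whether their reads can be kept apart. The most alike stretch of 90 coding bases of the FGF9 subfamily is shown because its 3 genes differed in the direction of their values. Capitals mark bases that are not the same in all 3 genes, and the strand is the coding strand, 5′ to 3′.
Fgf9: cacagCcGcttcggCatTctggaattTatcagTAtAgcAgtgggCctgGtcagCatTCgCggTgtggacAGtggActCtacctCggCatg
Fgf16: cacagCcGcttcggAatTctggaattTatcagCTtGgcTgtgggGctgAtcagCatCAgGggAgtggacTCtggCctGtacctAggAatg
Fgf20: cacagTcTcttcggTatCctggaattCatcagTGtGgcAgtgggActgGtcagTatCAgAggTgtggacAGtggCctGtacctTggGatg
These are coding bases 265 to 354 of Fgf9, 262 to 351 of Fgf16 and 274 to 363 of Fgf20 in GENCODE transcripts on GRCm38. In this stretch 22 of 90 bases were not shared by all 3 genes. For the most abundant ligand, Fgf10, the same search was made against Fgf7, which shares its receptors, and capitals mark the 28 bases that differ.
Fgf10: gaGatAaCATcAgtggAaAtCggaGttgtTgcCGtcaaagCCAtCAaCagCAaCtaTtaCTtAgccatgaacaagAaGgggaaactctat
Fgf7: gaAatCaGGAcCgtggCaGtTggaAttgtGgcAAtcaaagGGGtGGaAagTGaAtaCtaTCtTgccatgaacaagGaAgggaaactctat
These are coding bases 337 to 426 of Fgf10 and 295 to 384 of Fgf7. Over the aligned coding sequence, identity was 70.8% between Fgf9 and Fgf16, 70.6% between Fgf9 and Fgf20, 72.1% between Fgf16 and Fgf20 and 63.5% between Fgf7 and Fgf10. The longest run of bases shared exactly by any pair of the 10 transcripts was 43 bases (Fgf7 and Fgf10), and among the FGF9 subfamily it was 29 bases (Fgf16 and Fgf20). No other gene of the table held the same counts in all 6 embryos as any of the 10. That check finds only rows that share all their reads, and a sharing of part of the reads was not tested.

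The reads on genes numbered 12547301 to 21568517 per embryo. Esrp1 had 27.2, 34.3 and 39.1 CPM (read counts scaled to the embryo's depth by edgeR's TMM method) in knockouts 1, 2 and 3, against 197, 102 and 118 CPM in controls 1, 2 and 3, so the groups did not overlap (log2 fold change -2.05 ± 0.26 SE; adjusted p = 0.0354 by the quasi-likelihood test of edgeR). That call was lost with Xist as a covariate (adjusted p = 0.0787), and without any 1 knockout or control 3 (adjusted p 0.122 to 0.158), while the log2 fold change stayed between -2.36 and -1.59 over all 13 alternatives. Markers of the labelled tissue were present. Epcam had 390, 399 and 502 CPM in knockouts 1, 2 and 3, against 535, 269 and 348 CPM in controls 1, 2 and 3. Mesenchymal markers were present too. The 8 genes of the periotic mesenchyme list were led by Col3a1 and Col1a2, with no marker at 0. Knockouts 1, 2 and 3 summed to 2760, 2625 and 2543 CPM, and controls 1, 2 and 3 to 1342, 2370 and 2757 CPM. Of the 6 embryos, control 1 was the highest in Epcam and the lowest in this list. The part of this difference in the ligand values was not tested. The 5 genes of the Reissner membrane and roof list, led by Oc90 and Enpep, summed to 8475 to 10800 CPM in knockouts and 3258 to 7060 CPM in controls, sums made up almost wholly of Oc90 (8220 to 10500 CPM in knockouts, 3038 to 6619 CPM in controls). In this list Enpep fell (log2 fold change -1.94) and Slc26a7 rose (1.69), beside 0.0679% of all genes tested called lower and 0.0815% called higher. Oc90, Otx2 and Wnt4 had 1.01 to 1.27 and did not pass edgeR's test here. The groups did not overlap for all 5, beside 9.84% of all genes tested. DESeq2 called all 5 (4 higher, 1 lower), beside 1.01% of its genes. The authors' deposited table gave an FDR of 0.00327 for Oc90, 0.0168 for Otx2 and 0.000377 for Wnt4. The spiral ganglion neuron and glia list, led by Sox10 and Gata3, summed to 921 to 1154 CPM in knockouts and 999.6 to 1302 CPM in controls. Its members went different ways. In controls 1, 2 and 3 Nefm had 21.8, 283.5 and 146.5 CPM, Nefl 21.4, 207 and 133 CPM and Tubb3 21.6, 129 and 65.5 CPM. Sox10 had 474.5, 291 and 277 CPM in them and Gata3 451, 324 and 324 CPM. The groups did not overlap for Neurod1 (higher in knockouts) and Gata3 (lower), 2 of the 8, beside 9.84% of all genes tested. The blood list, led by Hba-a1 and Alas2, summed to 177 to 457 CPM in knockouts and 306 to 588 CPM in controls. Sex-linked RNA differed between embryos: Xist had 1098, 0.268 and 0.20 CPM in knockouts 1, 2 and 3, against 1312 to 1808 CPM in controls. The Y-linked gene Ddx3y had 0.8386, 94.97 and 81.87 CPM in knockouts 1, 2 and 3, against 0.6467 to 0.9072 CPM in controls. Kdm5d, Uty and Eif2s3y were likewise high in knockouts 2 and 3 only. By these RNAs knockouts 2 and 3 were male, and knockout 1 and all controls female. Sex thus went partly with genotype, and beyond the fits with Xist its part was not tested. Of 14717 genes tested, 22 passed edgeR's quasi-likelihood test at an adjusted p of 0.05, which is 0.149% (0.0815% higher and 0.0679% lower in the knockout), and 0 passed without knockout 2 or without control 3. Each p-value of that test sets the group difference against the spread between embryos, which among knockouts includes their difference in sex-linked RNA.

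Of the 10 ligands, 0 passed that test in either direction, beside 0.149% of all genes tested. DESeq2 also called 0 of the 10, where it called 1.01% of the genes it gave an adjusted p (0.635% higher and 0.373% lower in the knockout). At an unadjusted p under 0.05 in edgeR's test stood 2 ligands, Fgf16 and Fgf20, beside 4.77% of all genes tested. Fgf16 had the lower values in the knockout and Fgf20 the higher ones. Of the 10, 7 ligands had a negative and 3 a positive log2 fold change, with a median of -0.28, while the median of all genes tested was 0.00163. The groups did not overlap in CPM for 1 of the 10, Fgf16, beside 9.84% of all genes tested (5.4% higher and 4.44% lower in the knockout). In these bulk samples, fewer cells of a type and less RNA per cell cannot be told apart.

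**Figure D1:**
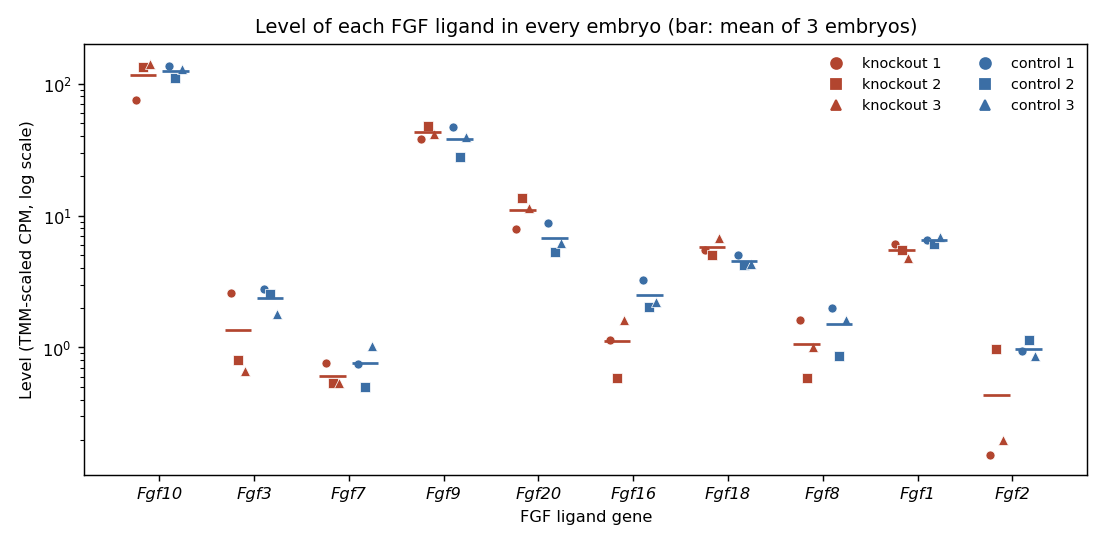
Level of each FGF ligand in TMM-scaled CPM (log axis) in knockout embryos (red, left of each pair) and control embryos (blue, right), with the marker shape giving the embryo number and the bar the mean of 3 embryos. Fgf16 is the ligand whose 3 knockout points all lie below the 3 control points, and knockout 1 stands low in Fgf10 at 75.4 CPM.

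Levels of different ligands were compared per length, as the FPKM deposited by the authors, which divide a gene's fragments by its length and by the depth of the embryo's libraries. By these values Fgf10 led with 11.6 ± 3.00 FPKM in knockouts and 12.1 ± 0.752 FPKM in controls (SD, n = 3 each). It made up 40.4% to 54.3% of the summed FPKM of the 10 ligands in knockout embryos and 50.6% to 54.3% in control embryos. Fgf9 was second with 4.71 ± 0.518 FPKM in knockouts and 4.06 ± 0.749 FPKM in controls. Fgf20 had 3.11 ± 0.720 FPKM in knockouts and 1.84 ± 0.352 FPKM in controls. Fgf18 had 2.19 ± 0.250 FPKM in knockouts and 1.67 ± 0.0490 FPKM in controls. These 4 were in the same order in each group, and neighbours in that order did not overlap, except that Fgf20 and Fgf18 overlapped in controls. The other 6 were below 1 FPKM in mean, with Fgf7 lowest at 0.106 ± 0.0343 FPKM in knockouts and 0.128 ± 0.0474 FPKM in controls. Among these 6 all neighbours overlapped within a group, except Fgf16 and Fgf7 in controls. In FPKM the groups did not overlap for 3 of the 10 ligands, beside 9.48% of all genes tested: Fgf16 was lower in every knockout (beside 3.31% of all genes) and Fgf18 and Fgf20 were higher (beside 6.17%). As a share of the summed FPKM, Fgf20 made up 12.2% to 14.7% in knockouts and 7.30% to 9.27% in controls, and Fgf16 0.354% to 0.939% in knockouts and 1.42% to 1.83% in controls.

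These levels depend on the length that was counted, which reads and FPKM together imply. It was 4102 bases for Fgf9, whose matched GENCODE transcript has 1593 bases, 2957 against 1645 bases for Fgf16, 1162 against 2299 bases for Fgf3 and 700 against 5973 bases for Fgf2. With the annotated lengths in place of the implied ones, a comparison added after the data were seen, Fgf10 would stand at 12.8 ± 3.31 in knockouts and 13.3 ± 0.829 in controls, and Fgf9 at 12.1 ± 1.33 in knockouts and 10.5 ± 1.93 in controls. The 2 ligands then overlapped in knockouts and not in controls. On that scale Fgf10 made up 31.8% to 44.3% of the sum in knockouts and 41.4% to 47.2% in controls, Fgf9 33.5% to 41.5% in knockouts and 31.1% to 36.7% in controls, and Fgf2 was the lowest of the 10 in each group. If the reads were counted over the implied lengths, dividing them by the annotated ones does not give levels. The values then show only how far the order and shares depend on length.

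The IIIb ligands were described first by Fgf10 (chromosome 13, 118714699 to 118792573, plus strand, GRCm38, 3 exons), which is made in the floor of the mouse cochlear duct and is needed for its non-sensory parts. Fgf10 had 75.4, 133 and 142 CPM in knockouts 1, 2 and 3, against 135, 110 and 129 CPM in controls 1, 2 and 3. Knockout 1 was the lowest of the 6 embryos, and knockouts 2 and 3 were at the upper end of the controls or above them, so the groups overlapped. The log2 fold change was -0.10 ± 0.23 (SE, 95% interval -0.61 to 0.42, adjusted p = 0.994 by the quasi-likelihood test of edgeR, as for every adjusted p unless another tool is named). It was 0.13 without knockout 1 and -0.76 with Xist as a covariate (adjusted p = 0.0793), a fit in which knockout 1 is the knockout with Xist near the controls' level. The 6 genes of the Kölliker's organ and tectorial membrane list, led by Tecta and Otog, summed to 3428, 4702 and 6244 CPM in knockouts 1, 2 and 3, against 5316, 3251 and 4069 CPM in controls 1, 2 and 3. None was at 0, knockout 1 was again the lowest of the knockouts, and 1 of the 6 passed the test, beside 0.149% of all genes: Epyc, named after its values were seen, fell (log2 fold change -1.47 ± 0.15 SE, adjusted p = 0.0144). Of the 6 genes 4 had a positive log2 fold change, the largest 1.05 for Otoa. The groups did not overlap for 2 of the 6, Otoa (higher) and Epyc (lower), beside 9.84% of all genes tested. DESeq2 called 1 higher and 1 lower, beside 0.635% and 0.373% of its genes. The part of these 6 genes in the Fgf10 values was not tested.

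Fgf3 was much less abundant. This gene (chromosome 7, 144838612 to 144843348, plus strand, 3 exons), which acts with Fgf10 in induction of the mouse otic placode, had 34, 15 and 10 reads in knockouts 1, 2 and 3, against 44, 56 and 33 reads in controls 1, 2 and 3. In CPM these were 2.59, 0.805 and 0.667 in knockouts and 2.76, 2.54 and 1.78 in controls. Knockouts 2 and 3 lay below all controls, while knockout 1 lay among them. Its fitted log2 fold change, -0.82 ± 0.53 (SE, adjusted p = 0.994), did not pass, and the ratio of summed reads was 0.537 (95% interval 0.388 to 0.735, counting error only). Without knockout 1 the log2 fold change was -1.67 (adjusted p = 0.413), and with Xist as a covariate it was 0.21 (adjusted p = 0.827).

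Fgf7 (chromosome 2, 126034658 to 126091185, plus strand), also known as keratinocyte growth factor and usually made by mesenchyme, had 8 to 10 reads per knockout embryo and 11 to 19 reads per control embryo. It passed the count filter with 1 knockout and 2 control embryos at the required 0.573 CPM. Its fitted log2 fold change was -0.31 ± 0.47 (SE, 95% interval -1.39 to 0.77, adjusted p = 0.994), and the groups overlapped in CPM. The exact permutation test gave p = 0.70.

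In the FGF9 subfamily, the 3 genes had values in different directions. Fgf9 (chromosome 14, 58070671 to 58112854, plus strand, 3 exons) is made by the mouse otic epithelium and signals to the mesenchyme around it. It had 38.3, 48.1 and 41.6 CPM in knockouts 1, 2 and 3, against 46.6, 28.0 and 39.7 CPM in controls 1, 2 and 3. Knockouts 1 and 3 lay within the range of the controls and knockout 2 just above it. In the fit Fgf9 had a log2 fold change of 0.17 ± 0.20 (SE, 95% interval -0.28 to 0.61, adjusted p = 0.994), and without control 2 it was -0.02.

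Fgf20 (chromosome 8, 40279166 to 40286953, minus strand, 3 exons) is made in the prosensory domain and is needed in the mouse for the lateral part of the organ of Corti. It had 104, 255 and 172 reads in knockouts 1, 2 and 3, against 140, 116 and 115 reads in controls 1, 2 and 3. In CPM, knockouts 1, 2 and 3 had 7.93, 13.7 and 11.5 and controls 1, 2 and 3 had 8.77, 5.26 and 6.20. Knockouts 2 and 3 were above all controls, and knockout 1 was below control 1, so the groups overlapped in CPM, though not in FPKM. In the fit Fgf20 had a log2 fold change of 0.72 ± 0.28 (SE, 95% interval 0.07 to 1.36, adjusted p = 0.906), and the exact two-sided permutation test of 3 against 3 embryos gave p = 0.20, where the smallest it can give is 0.10. With both embryos numbered 1 left out, the log2 fold change was 1.13 and the adjusted p = 0.0569. In that fit the knockouts lacked Xist and the controls had it, so genotype and Xist level cannot be told apart. With Xist as a covariate the log2 fold change was 0.22 (adjusted p = 0.755). Over all 13 alternatives the adjusted p for Fgf20 was at least 0.0569. The 6 supporting and pillar cell markers, led by Sox2 and Fgfr3, summed to 163 to 227 CPM in knockouts and 250 to 274 CPM in controls. None was at 0, and 0 passed the test, beside 0.149% of all genes. Of these 6, 5 had a negative and 1 a positive log2 fold change. The groups did not overlap for 3, Prox1, Fgfr3 and Hes5, each lower in the knockout (beside 4.44% of all genes tested). The part of these markers in the Fgf20 values was not tested.

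Fgf16 (chromosome X, 105764477 to 105776532, plus strand, 3 exons) marks the lateral part of the mouse cochlear duct. It had 15, 11 and 24 reads in knockouts 1, 2 and 3, against 52, 45 and 41 reads in controls 1, 2 and 3. In CPM these were 1.14, 0.591 and 1.60 in knockouts and 3.26, 2.04 and 2.21 in controls. Every knockout lay below every control. In the fit Fgf16 had a log2 fold change of -1.18 ± 0.44 (SE, 95% interval -2.18 to -0.17, adjusted p = 0.860), the ratio of summed reads 0.438 (95% interval 0.311 to 0.610, counting error only), and the exact permutation test gave p = 0.10, its smallest value. Over the 13 alternatives its log2 fold change stayed negative, between -1.55 and -0.85, with adjusted p of at least 0.382. Knockout 1, which had Xist, lay between knockouts 2 and 3. The authors' deposited table gave Fgf16 a log2 fold change of -1.21 with an FDR of 0.463. The 6 markers of the outer sulcus and lateral wall, led by Lmx1a and Bmp4, summed to 167 to 205 CPM in knockouts and 266 to 434 CPM in controls, with none at 0. Of these 6, 2 passed the test, beside 0.0679% of all genes called lower, and both fell: Esrrb (log2 fold change -3.98 ± 0.39 SE, adjusted p = 0.0137) and Kcne1 (-4.67 ± 0.45 SE, adjusted p = 0.0137), named after their values were seen. The other 4 did not pass and went both ways. Their log2 fold changes were -1.35 for Bmp4, -0.91 for Kcnq1, 0.47 for Lmx1a and 0.11 for Slc26a4. Bmp4 had 25.5, 42.3 and 48.3 CPM in knockouts 1, 2 and 3, against 111, 89.2 and 96.5 CPM in controls 1, 2 and 3. In the authors' edgeR comparison Bmp4 had an FDR of 3.56e-07. DESeq2 called 3 of the 6, all lower, beside 0.373% of its genes called lower. The groups did not overlap for Bmp4, Esrrb and Kcne1, each lower in the knockout (beside 4.44% of all genes tested). The part of these markers in the Fgf16 values was not tested.

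**Figure D2:**
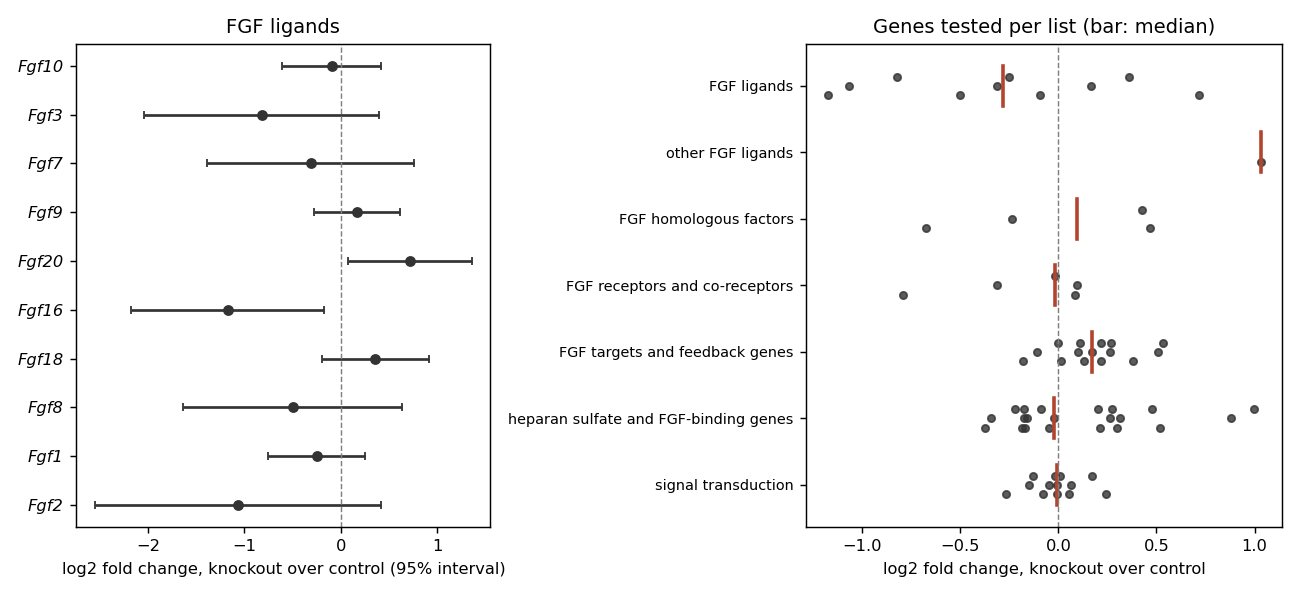
Left, log2 fold change (knockout over control) of each ligand with its 95% interval from edgeR's quasi-likelihood fit on 3 knockout and 3 control embryos. Right, log2 fold changes of the genes tested in each FGF list (points) with the median (red bar). The intervals of Fgf16 (-2.18 to -0.17) and Fgf20 (0.07 to 1.36) lie on 1 side of 0 before adjustment for 14717 genes.

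The FGF8 subfamily was represented by Fgf18 and Fgf8. Fgf18 (chromosome 11, 33116970 to 33147400, minus strand), best known for its role in cartilage and bone, had 4.99 to 6.81 CPM in knockouts and 4.22 to 5.01 CPM in controls. The lowest knockout, embryo 2, was just below the highest control, embryo 1, in CPM, whereas in FPKM every knockout (1.92 to 2.41) was above every control (1.64 to 1.73). For Fgf18 the fit gave a log2 fold change of 0.36 ± 0.24 (SE, 95% interval -0.20 to 0.91, adjusted p = 0.994). Fgf8 (chromosome 19, 45736491 to 45742941, minus strand), the inner hair cell signal that acts on pillar cells in the mouse, had 21, 11 and 15 reads in knockouts 1, 2 and 3, against 32, 19 and 30 reads in controls 1, 2 and 3. Embryos numbered 1 were highest and embryos numbered 2 lowest in each group, and the groups overlapped. For Fgf8 the fit gave -0.50 ± 0.50 on the log2 scale (SE, adjusted p = 0.994). The hair cell list of 6 genes, led by Myo6 and Myo7a, summed to 225 to 279 CPM in knockouts and 280 to 310 CPM in controls. None was at 0 and 0 passed the test, beside 0.149% of all genes. The groups did not overlap for 2 of the 6, Pou4f3 and Myo6, both lower in the knockout (beside 4.44% of all genes tested). Of the 6, 4 had a negative and 2 a positive log2 fold change, and the list's part in the Fgf8 values was not tested. Fgf8 was the only ligand with more than 1 transcript row. Its 4 rows held 122 to 128 reads over the 6 embryos, so they count almost the same reads and say nothing on isoforms.

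Fgf1 and Fgf2 lack a classical signal peptide and leave the cell by another route. Fgf1 (chromosome 18, 38838672 to 38929470, minus strand) had 4.80 to 6.10 CPM in knockouts and 6.08 to 6.90 CPM in controls, an overlap of knockout 1 with control 2. Its log2 fold change was -0.25 ± 0.22 (SE, 95% interval -0.75 to 0.25, adjusted p = 0.994). Fgf2 (chromosome 3, 37348477 to 37410106, plus strand) had 2, 18 and 3 reads in knockouts 1, 2 and 3, against 15, 25 and 16 reads in controls 1, 2 and 3. Knockouts 1 and 3 lay below all controls and knockout 2 among them. Fgf2 had a fitted log2 change of -1.07 ± 0.65 (SE, adjusted p = 0.994), and one of -2.42 without knockout 2 (adjusted p = 0.611). Fgf2 passed the count filter through the controls, with 3 controls and 1 knockout at the required 0.573 CPM. The reads and FPKM of its row imply a counted length of about 700 bases, 11.7% of the 5973 bases of the annotated transcript, as estimated from its values. In the annotation 5199 of those 5973 bases lie within the span of Nudt6 on the other strand, 698 of 4114 bases of Fgf10 within the antisense gene Gm16263, and all of Fgf1 and Fgf7 within the spans of Arhgap26 and Fam227b on the other strand. Whether the counting used strand is not given in the sources used here, so reads from these partners cannot be told apart from the ligands' own.

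Grouped by receptor preference, the 5 IIIc ligands (Fgf8, Fgf9, Fgf16, Fgf18, Fgf20) summed to 9.99, 11.4 and 10.3 FPKM in knockouts 1, 2 and 3, against 9.60, 7.01 and 8.70 FPKM in controls 1, 2 and 3. In FPKM every knockout was above every control, while in CPM the sums were 54.4, 67.9 and 62.5 in knockouts and 65.6, 40.4 and 53.9 in controls and overlapped. The 3 IIIb ligands (Fgf3, Fgf7, Fgf10) summed to 9.28, 13.7 and 13.7 FPKM in knockouts, against 13.2, 12.5 and 13.7 FPKM in controls, which overlapped. The IIIc sum was 1.08, 0.835 and 0.751 times the IIIb sum in knockouts 1, 2 and 3, against 0.730, 0.561 and 0.634 times in controls 1, 2 and 3. These ratios of FPKM did not overlap, with knockout 3 closest to control 1. The ratios of CPM, which give long transcripts more weight, were 0.691, 0.506 and 0.437 in knockouts 1, 2 and 3, against 0.473, 0.356 and 0.409 in controls 1, 2 and 3, and overlapped. With annotated lengths, which may not be those counted, the ratios were 1.19 to 1.84 in knockouts and 0.960 to 1.26 in controls and overlapped too. Knockout 1, with the highest ratio, had the lowest Fgf10 at 8.10 FPKM, and Fgf20 was 2.44, 3.88 and 3.02 FPKM in knockouts 1, 2 and 3, against 2.22, 1.53 and 1.77 FPKM in controls 1, 2 and 3. On the log2 scale the difference in the FPKM ratio was 0.47. No p is given, since the sums were formed with results of these data known.

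**Figure D3:**
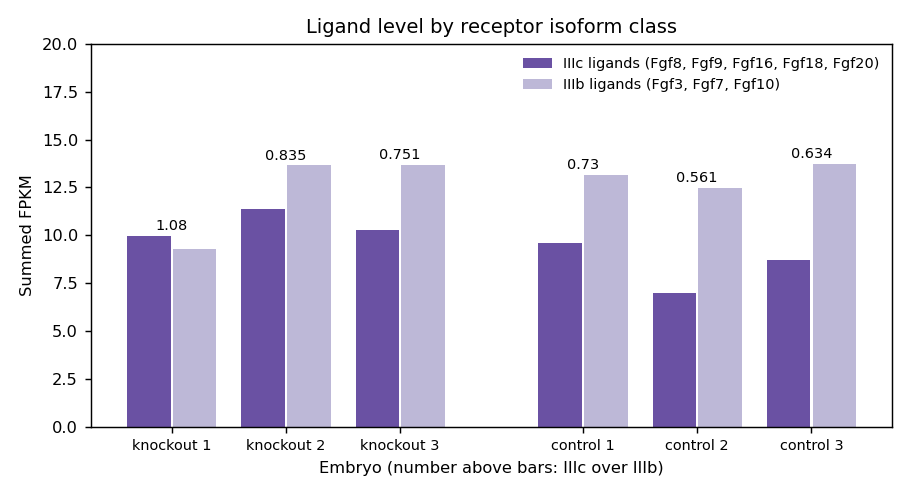
Summed FPKM of the IIIc ligands (dark) and the IIIb ligands (light) in each knockout embryo (left) and control embryo (right), with the IIIc sum over the IIIb sum above each pair. The ratio of FPKM is 0.751 to 1.08 in knockouts and 0.561 to 0.730 in controls.

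Among the ligands, Fgf9 and Fgf20 varied together over the 6 embryos (Pearson's r = 0.801 of log2 CPM), as did Fgf1 and Fgf3 (r = 0.805), while Fgf3 and Fgf20 had r = -0.754 and Fgf1 and Fgf18 r = -0.788. These values describe 6 embryos that share genotype groups and differ in depth. Measured the same way, the genes most like Fgf10 were Sobp, Fat3 and Ppm1b (r = 0.996, 0.996 and 0.995), and 263 of 11268 genes compared had r over 0.95 with it. For Fgf9 they were Dcaf6, Nrxn3 and Slc4a3 (r = 0.975, 0.973 and 0.973), with 5 genes over 0.95. For Fgf20 they were Dapk1, Ppp4r4 and Nnt (r = 0.979, 0.974 and 0.973), with 5 genes over 0.95. For Fgf16 they were Kctd8, Snw1 and Tceal8 (r = 0.982, 0.970 and 0.967), with 8 genes over 0.95. Rasgef1b, Prr7 and Rps6 were most like Fgf3 (r = 0.995, 0.976 and 0.975), Acacb, Ldha and Hes6 most like Fgf8 (r = 0.982, 0.981 and 0.977), Zfp526, Ctps2 and Hn1l most like Fgf18 (r = 0.983, 0.983 and 0.979), and Sip1, Cnbp and Mettl8 most like Fgf1 (r = 0.965, 0.962 and 0.961). For these 4 ligands 10 to 14 genes had r over 0.95.

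Other genes of the pathway were taken from lists of its textbook members. Of 8 other FGF ligands, Fgf17 alone had enough reads to be tested (log2 fold change 1.03 ± 0.61 SE, adjusted p = 0.994), and Fgf4 had 0 reads in all 6 embryos. The 4 FGF homologous factors, which stay inside the cell, had 0 past the test, with log2 fold changes of 0.43 for Fgf13, 0.47 for Fgf14 and -0.68 for Fgf12. Of the FGF receptors and co-receptors 5 of 7 were tested and 0 passed. For both lists the share of all genes tested that passed was 0.149%. Fgfr3, the receptor through which Fgf8 acts on pillar cells, had 27.1, 40.6 and 34.3 CPM in knockouts 1, 2 and 3, against 80.1, 45.8 and 51.4 CPM in controls 1, 2 and 3 (log2 fold change -0.79 ± 0.24 SE, adjusted p = 0.541). The authors' deposited table gave that Fgfr3 row an FDR of 0.0322. Without both embryos numbered 1 its log2 fold change was -0.38. Fgfr2, the epithelial receptor of Fgf10, had -0.31 and Fgfr1 0.08 on the log2 scale. Each receptor is given here by its transcript row with the most reads. Whether its rows separate IIIb from IIIc forms was not examined.

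Of 15 FGF targets and feedback genes tested, 0 passed the test, beside 0.149% of all genes, and 12 had a positive log2 fold change (median 0.17). The transcription factor gene Etv4, a readout of FGF signalling, had 59.5, 51.6 and 42.2 CPM in knockouts, against 31.2, 42.3 and 34.0 CPM in controls (log2 fold change 0.51 ± 0.17 SE, adjusted p = 0.712). Il17rd, a membrane inhibitor of FGF signalling, had a log2 fold change of 0.38 ± 0.15 (SE, adjusted p = 0.899), and Flrt2, a membrane protein gene, 0.53 ± 0.23 (SE, adjusted p = 0.994). Summed over the list, the level was 1037 to 1198 CPM in knockouts and 943 to 996 CPM in controls.

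Of 21 heparan sulfate and FGF-binding genes 0 passed the test, beside 0.149% of all genes, and 10 had a positive log2 fold change (median -0.02). The groups did not overlap in CPM for 5 of the 21, beside 9.84% of all genes tested. These were Gpc3, Gpc4, Sdc1, Ndst2 and Fgfbp3, each higher in the knockout (beside 5.4%). Gpc3, a glypican that carries heparan sulfate at the cell surface, had 352, 413 and 465 CPM in knockouts 1, 2 and 3, against 214, 180 and 222 CPM in controls 1, 2 and 3, with no overlap. For Gpc3 the fit gave a log2 fold change of 1.00 ± 0.15 (SE, adjusted p = 0.0751), DESeq2 called it (adjusted p = 1.89e-06), and the authors' deposited table gave it an FDR of 0.00183. The glypican gene Gpc4 had a log2 fold change of 0.88 ± 0.25 (SE, adjusted p = 0.495), and the syndecan gene Sdc1 0.31. Gpc3 and Gpc4 lie on the X chromosome, as Fgf16 does. With Xist as a covariate the log2 value of Gpc3 was 0.77 (adjusted p = 0.0787) and that of Gpc4 was 0.42 (adjusted p = 0.461). Knockout 1, which had Xist, was the lowest knockout for each gene, at 352 CPM of Gpc3 and 71.0 CPM of Gpc4, against at most 222 and 68.1 CPM in controls. The part of Xist or sex in these values was not tested further. Of 13 signal transduction genes downstream of the receptors, 0 passed, beside 0.149% of all genes. Their median was -0.00957, with log2 fold changes of 0.24 for the kinase gene Mapk3, 0.17 for the adaptor gene Shc1 and -0.27 for the adaptor gene Gab1.

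**Figure D4:**
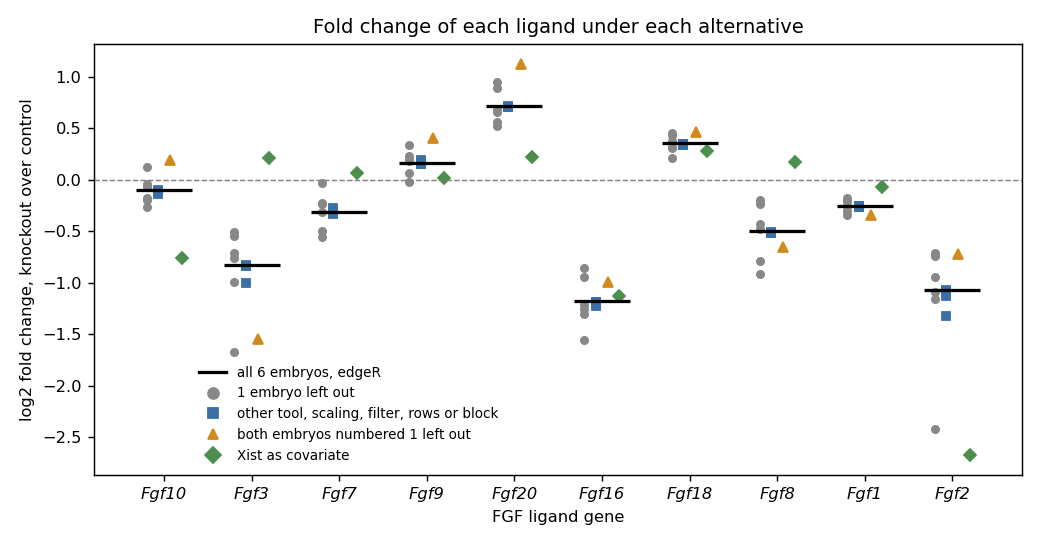
Log2 fold change (knockout over control) of each ligand with all 6 embryos in edgeR (black bar) and under each alternative (points by kind). Fgf16, Fgf1 and Fgf2 stay below 0 and Fgf20 and Fgf18 above 0 in all of them. Fgf10 and Fgf9 move across 0 with 1 embryo left out, and the covariate Xist moves Fgf10 to -0.76 and Fgf2 to -2.68.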

How the data were processed

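RNA-seq libraries were made from polyA RNA with a directional kit, 12 libraries from 6 embryos, per the labels' protocols. The authors deposited whole-number read counts per RefSeq transcript row, 1 column per embryo, per the file headers. They also deposited FPKM per embryo; these are whole multiples of 0.00005 in 100% of values above 0. Log2 fold changes with p-values and FDR come from the authors' edgeR comparison over transcript rows, per the file headers. Per the submitters' processing notes the build was mm10 (GRCm38) and edgeR was used. No aligner or counter is named in the sources used here. Another 14 columns were left out.

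For each of 22869 symbols the most-read row was kept. Genes were kept with filterByExpr (minimum count 10), scaled by TMM and compared with edgeR 4.0.16's quasi-likelihood test under R 4.3.3, with Benjamini-Hochberg adjustment over 14717 genes and a threshold of 0.05. Standard errors were derived from the F statistic, and the 95% interval uses the fit's degrees of freedom. Levels are TMM-scaled CPM, and likeness was measured on log2 CPM (prior count 2). Ratios of summed reads carry exact 95% intervals. Alternatives were DESeq2 1.42.0, other scaling, no filter, transcript rows, the replicate block, Xist as a covariate and embryos left out. The fit was also run on simulated data with known changes, and the outcome is not given here. Gene positions come from RefSeq and coding sequences from GENCODE M21, both on GRCm38; identity was computed with Biopython 1.88 over global alignments. 

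Genes named beyond the 10 ligands are Esrp1, for each pathway list up to 3 members with the smallest adjusted p, the 2 most-read members of marker lists and the 3 genes most like a ligand with a mean CPM of at least 1, among genes of at least 5 (clone names left out). The members and lists were chosen with earlier results of these data known.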

Additional observations from a re-analysis of the deposited data

How the results depend on the processing

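The count of 0 ligands past the threshold was the same in all 13 alternatives. The count of genes over the whole table was 22 with other scaling, 22 by transcript rows and 31 without the count filter, 165 in DESeq2, 159 without both embryos numbered 1, 5 with Xist as a covariate and 0 to 30 with single embryos left out. Without knockout 2 or control 3 it was 0. The deviations of embryos from their group means were correlated between the groups. Embryos with the same number had correlations of 0.0768, 0.177 and 0.0288, and those with unlike numbers -0.224 to 0.158. With 3 embryos per group these values cannot decide whether embryos with the same number were paired. With the replicate block 6 genes were called and 0 ligands, and Esrp1 had an adjusted p of 0.134. Of the pathway lists, where 0 passed, 1 gene passed in DESeq2 and without the count filter (Gpc3 in each), and 2 without both embryos numbered 1 (Gpc3 and Gpc4).

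Of 129 ligand values under alternatives 123 kept their sign. With Xist as a covariate the log2 fold changes were 0.209 for Fgf3, 0.0656 for Fgf7, 0.176 for Fgf8 and -0.0876 for Fgfr1. Without both embryos numbered 1 they were 0.19 for Fgf10, 0.00048 for Fgfr2 and -0.0451 for Shc1; Fgf7 was not tested there. With single embryos left out, Fgf10 ranged from -0.26 to 0.13, Fgf9 from -0.016 to 0.33, Fgf12 from -1.15 to 0.10 and Fgfr1 from -0.0027 to 0.15. The causes were not tested. The difference in the IIIc over IIIb ratio was 0.40 on the log2 scale with CPM, 0.31 to 0.57 with single embryos left out, 0.41 without both embryos numbered 1, 0.40 with annotated transcript lengths and 1.49 without Fgf10 and Fgf9, alternatives chosen after the data were seen. With annotated lengths, which may not be those counted, the mean share in knockouts was 39.0% for Fgf10, 37.6% for Fgf9 and 10.3% for Fgf20, against 48.4%, 20.1% and 13.1% in FPKM. The fitted 95% intervals of Fgf2, Fgf3, Fgf7 and Fgf8 include 0 and reach down to log2 fold changes of -1.39 or lower; the read ratios of Fgf2 and Fgf3 have counting intervals below 1.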

Other observations

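Fgf3 has FGF neighbours on chromosome 7, Fgf4 (144861386 to 144865245) and Fgf15 (144896532 to 144900953, GRCm38), all within 62342 bases. Fgf15, an FGF of the developing mouse brain and gut, had 1, 2 and 0 reads in knockouts 1, 2 and 3, against 15, 8 and 5 reads in controls 1, 2 and 3. The ratio of summed reads was 0.13 (95% interval 0.0252 to 0.42, counting error only), and Fgf15 was below the count filter of the test. The authors' deposited table gave it a log2 fold change of -2.13 with an FDR of 0.350. Fgf3 next to it had 59 reads over the knockouts and 133 over the controls, and Fgf4 had 0 in both groups. Fgf17 of the FGF8 subfamily had 53, 32 and 13 reads in knockouts 1, 2 and 3, against 26, 13 and 19 reads in controls 1, 2 and 3.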
